A study of Homo sapiens with 12 samples.

Results

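Cytosolic heat shock genes encode the chaperones that fold new proteins and hold damaged ones in solution, together with HSF1, the transcription factor that induces many of them when proteins misfold. The set described here was fixed by name and holds 10 of the 60664 genes in the table: HSF1, HSPA1A, HSPA1B, HSPA8, HSP90AA1, HSP90AB1, HSPB1, HSPH1, DNAJB1 and DNAJA1. All 10 symbols were found in the table, each on 1 row, and all 10 passed the filter on low counts in each comparison, so none was left out. RNA-seq was performed on 12 libraries of MDA-MB-231, a mesenchymal-like triple-negative human breast cancer cell line. There were 4 libraries of WT cells in normoxia, 4 of WT cells kept for 24 hr at 1% O2 (hypoxia) and 4 of untreated CCAR2-/- cells in normoxia (CCAR2 KO), and both WT groups carry no deletion. CCAR2 encodes DBC1. The paper studied how hypoxia leads to degradation of the DBC1 protein, and RNA-seq was a part of that work. It reported less DBC1 protein but unchanged CCAR2 mRNA in hypoxia. The knockout was made with a lentiviral CRISPR vector, and whether the KO cells are a single clone is not given in the sources used here. The methods speak of biological replicates, but in numbers that differ between their passages and from the 4 libraries per group, so whether each library is a separate culture is not clear and the p-values below may measure technical spread only.

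In cells that are not stressed, HSF1 is held inactive by chaperones, and misfolded proteins release it to bind heat shock elements in the promoters of its targets. HSP70 proteins (HSPA1A, HSPA1B, HSPA8) bind exposed hydrophobic segments in an ATP cycle that is started by J-domain partners (DNAJB1, DNAJA1) and reset by exchange factors such as HSPH1. HSP90 proteins (HSP90AA1, HSP90AB1) finish the folding of client kinases and receptors, while the small heat shock protein HSPB1 holds unfolded proteins without ATP. HSPA1A, HSPA1B, HSP90AA1 and DNAJB1 are known as strongly stress-inducible, whereas HSPA8 and HSP90AB1 are known as constitutive. Many tumour cells keep these chaperones at high levels.

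The promoters are shown because HSF1 binds its targets through heat shock elements, and its binding was not tested here. RefSeq windows of 300 bases (250 before and 50 from the transcript start, GRCh38.p14) were given for 9 of the 10 genes, 14 windows in all, and HSF1 had none. The element was searched on both strands as 2 facing units (GAANNTTC or TTCNNGAA) and as 3 alternating units, in which a further unit follows at the same spacing, and a 3-unit match contains a pair of overlapping 2-unit matches. A 2-unit match was found in at least 1 window of 8 of the 9 genes and in 9 of the 14 windows, against 13.5% of all 35116 windows. A 3-unit match was found in 4 genes (HSPA8, HSP90AA1, HSP90AB1 and DNAJA1) and in 4 of the 14 windows, against 0.49% of all windows. HSPH1 had no match in its window. A match does not show that HSF1 binds, and the lack of one does not show that it does not. Inexact elements and bases outside the windows were not searched. The core of the hypoxia response element, ACGTG on either strand, was found in 2 of the 14 windows, both of HSP90AB1, against 21.4% of all windows. Of these matches, 1 stretch before the start is shown per gene, the one nearest the start and, where possible, outside annotated exons, so a further 3-unit match of HSPA8 that begins at position -230, one of HSP90AB1 at -165 and that of DNAJA1, which begins at position 3 after the start, are not shown. In the following stretches, written 5′ to 3′ on the strand of the gene, the capitals mark the heat shock element matches.
HSPA1A, chr6:31815417-31815463 (+): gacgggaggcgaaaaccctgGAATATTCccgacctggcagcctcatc
HSPA1B, chr6:31827613-31827660 (+): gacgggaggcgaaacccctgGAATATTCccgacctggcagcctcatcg
HSPA8, chr11:123062171-123062199 (-): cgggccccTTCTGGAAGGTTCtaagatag
HSP90AA1, chr14:102087104-102087133 (-): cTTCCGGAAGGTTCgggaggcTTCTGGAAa
HSP90AB1, chr6:44247811-44247863 (+): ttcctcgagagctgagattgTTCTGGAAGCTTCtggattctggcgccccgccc
HSPB1, chr7:76302471-76302518 (+): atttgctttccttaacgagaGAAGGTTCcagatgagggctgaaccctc
DNAJB1, chr19:14518421-14518494 (-): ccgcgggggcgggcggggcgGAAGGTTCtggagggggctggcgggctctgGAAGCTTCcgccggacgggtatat
DNAJA1, chr9:33025055-33025102 (+): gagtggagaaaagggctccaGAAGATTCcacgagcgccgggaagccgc

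The labels were checked before the heat shock genes were compared. CCAR2 was at 149 ± 2.19 CPM, the count scaled to a common library sum corrected by its TMM factor, in WT normoxia, 148 ± 5.72 in hypoxia and 57.2 ± 2.74 in KO cells (SD, n = 4 each), so its RNA was lower but still present in the libraries labelled KO. The paper reported that the knockout was checked by sequencing the edited sites and that Western blots verified the protein was lost. These RNA values do not measure the protein. CA9, a carbonic anhydrase known to be induced by hypoxia, was at 4.86 ± 0.375 CPM in hypoxia and under 0.2 CPM in every normoxic library. Of the mesenchymal markers of this line, VIM was at 4381 to 5386 CPM in all 12 libraries, while the luminal markers ESR1, PGR and CDH1 and the blood markers PTPRC and CD3E stayed at or below 0.469 CPM. The luminal markers EPCAM (11.6 to 17.5 CPM) and GATA3 (4.82 to 8.20 CPM) were detected at low levels. The deposited values summed to between 153904088 and 213743693 per WT normoxia library, 76384973 and 195621872 per hypoxia library and 68599412 and 152328450 per KO library. The values were treated as estimates, since the counting tool is given differently by the methods and the processing notes, so these sums may not be numbers of reads, but every member had at least 1026 counts in every library. Immediate early genes, which respond to handling, summed to 515 to 569 CPM in hypoxia against 396 to 453 CPM in WT normoxia and 388 to 409 CPM in KO cells. JUN was the largest part of this sum, at 249 ± 13.6 CPM in WT normoxia, 338 ± 19.5 in hypoxia and 198 ± 3.25 in KO cells. Against WT normoxia, 5 of the 8 genes had a fold change above 0 in hypoxia and 3 below, and 6 and 2 in KO cells. The sum therefore does not stand for each gene of the list. The part of these genes in the results below was not tested.

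HSP90AB1, HSPA8 and HSP90AA1 were the most abundant members. The 10 genes together made up 0.662% ± 0.0188 of the library sum in WT normoxia, 0.644% ± 0.0438 in hypoxia and 0.599% ± 0.0101 in KO cells. Without HSPA8, HSP90AA1 and HSP90AB1 the share was 0.103%, 0.102% and 0.104%, respectively, so these 3 genes carried most of the RNA and most of the difference between groups. Per kb of annotated exon, WT normoxia levels descended from HSP90AB1 (774 CPM per kb) through HSPA8 (392), HSP90AA1 (301), HSPB1 (139), DNAJA1 (114), DNAJB1 (49.2), HSPH1 (23.4), HSF1 (20.4) and HSPA1B (8.84) to HSPA1A (6.86), all in CPM per kb. The ranges over the 4 libraries did not overlap between neighbours of this order in any group. The order was the same in KO cells, and in hypoxia HSF1 (21.0 CPM per kb) lay above HSPH1 (19.2). With the median length of the coding transcripts in place of all exons, HSPA8 was above HSP90AB1 in both WT groups and HSF1 was above HSPH1 in every group. The order of HSP90AB1 and HSPA8 in the WT groups and that of HSPH1 and HSF1 in normoxia thus depend on the length used. The order of the means in hypoxia (HSF1 above HSPH1) and in KO cells (HSP90AB1 above HSPA8) did not. With the median length, however, HSPA8 (777 CPM per kb) was above HSP90AB1 (769) in KO replicate 1.

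**Figure D1:**
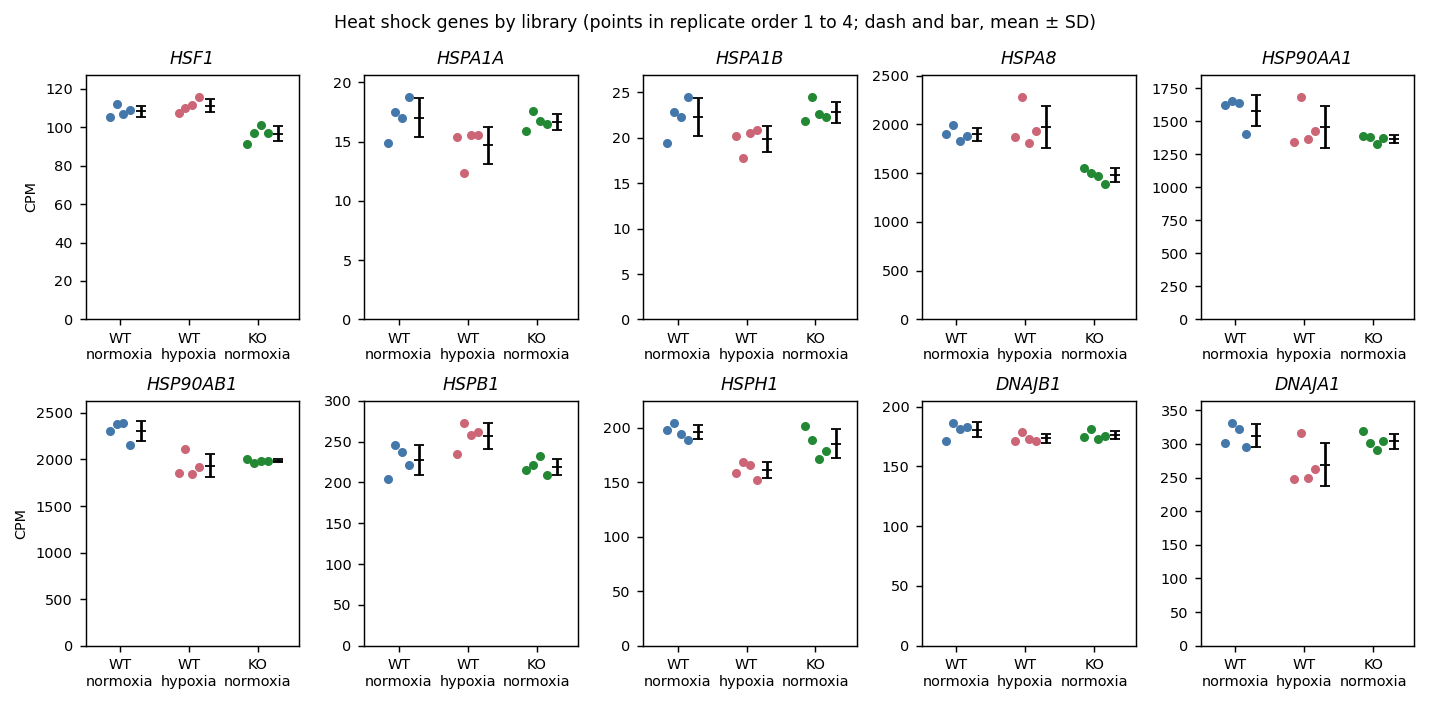
Level of each heat shock gene in CPM (vertical axes, from 0) in the 12 libraries by group; points are libraries in the order of their replicate numbers, and the dash with bars is the mean ± SD of 4. HSPA8 lies between 1384 and 1556 CPM in the KO libraries, below all 8 WT libraries, and HSPH1 lies between 152 and 168 CPM in hypoxia, below all other libraries.

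None of the 10 heat shock genes passed the test in any of the 3 comparisons (edgeR's quasi-likelihood test, adjusted p under 0.05 together with a log2 fold change of 0.5 or more in either direction). Among all genes tested, 7.26% passed in hypoxia against WT normoxia, 9.67% in KO cells against WT normoxia and 15% in KO cells against hypoxia. DESeq2 and limma-voom also called 0 of the 10 in each comparison. At an unadjusted p under 0.05, 4, 4 and 6 members passed in these comparisons, beside 35.3%, 39.4% and 43% of all genes. The 95% intervals of 29 of the 30 member fold changes lay inside the fold limit on both sides, and the exception was HSPA8 between KO cells and hypoxia. Smaller differences did pass the adjusted p alone and are described below by role as lower or higher, under the fold limit. CPM used TMM factors of all 12 libraries and all genes, whereas each comparison used those of its own 8 libraries and the genes it tested, so a log2 fold change may differ slightly from the ratio of CPM means. The libraries of WT normoxia serve in both the hypoxia and the KO comparison, so the results of these comparisons are not independent of each other. The comparison of KO cells with hypoxia reuses the other libraries of both, so it is not a separate finding either. Genotype and oxygen differ together in it, and there were no KO cells in hypoxia. A difference there thus cannot be assigned to the knockout or to hypoxia.

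**Figure D2:**
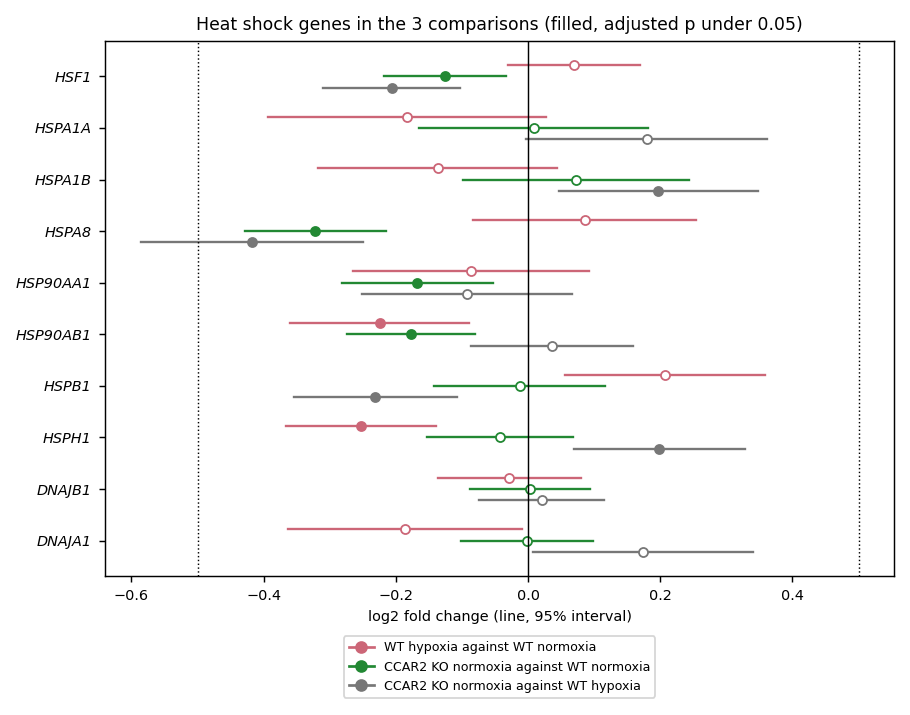
Log2 fold change (horizontal axis) with its 95% interval for the 10 heat shock genes in the 3 comparisons; filled points have an adjusted p under 0.05 and dotted lines mark the fold limit of 0.5. All points lie inside the limits, from -0.42 to 0.21.

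At an adjusted p alone, 2 of the 10 genes were lower in hypoxia than in WT normoxia (HSPH1 and HSP90AB1) and 0 were higher. The background at this threshold was 23.5% of all genes tested, 12% lower and 11.6% higher. In KO cells 4 of the 10 were lower than in WT normoxia (HSPA8, HSP90AB1, HSP90AA1 and HSF1) and 0 were higher, beside 30.4% of all genes, 15.4% lower and 14.9% higher. Between KO cells and hypoxia 2 were higher in KO cells (HSPA1B and HSPH1) and 3 lower (HSF1, HSPA8 and HSPB1), beside 34.9% of all genes, 17.1% higher and 17.8% lower. Without any 1 library the counts were 1 to 4 lower and 0 to 1 higher in hypoxia, 2 to 4 lower in KO cells, and 0 to 2 higher and 3 lower between KO cells and hypoxia. Upper-quartile scaling gave 1 lower and 1 higher in hypoxia, 2 lower in KO cells, and 1 higher and 3 lower between them. The libraries of the groups did not overlap for 2, 4 and 6 members in these comparisons, against 27.6%, 31.7% and 35.8% of all genes. The median log2 fold change of the 10 genes was -0.11 in hypoxia, -0.03 in KO cells and 0.03 between KO cells and hypoxia, and the medians of all genes tested were 0.01, 0.01 and -0.02. Among genes with a mean of at least 1000 counts, which are closer to these genes in abundance, the medians were -0.06, -0.04 and 0.01. Of these more abundant genes, 2378 of 10548 were lower and 1440 higher in hypoxia at an adjusted p alone. In KO cells 2834 of 10549 were lower and 2059 higher. Between KO cells and hypoxia 2580 of 10548 were lower and 2731 higher.

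HSF1, the transcription factor, was at 105, 112, 107 and 109 CPM in WT normoxia, 107, 110.2, 112 and 116 CPM in hypoxia and 91.5, 96.9, 101 and 96.8 CPM in KO cells. The hypoxia and WT normoxia libraries overlapped, whereas each KO library was below each WT library. The log2 fold change in hypoxia was 0.07 (SE 0.05, edgeR adjusted p = 0.314). In KO cells HSF1 was lower by a small margin, with a log2 fold change of -0.13 (SE 0.04, edgeR adjusted p = 0.0401) against WT normoxia and -0.21 (SE 0.05, edgeR adjusted p = 0.00526) against hypoxia. The first of these missed the adjusted p threshold without WT normoxia replicate 2, 3 or 4 or KO replicate 1, 2 or 4 (edgeR adjusted p between 0.0604 and 0.0982) and under upper-quartile scaling (0.102), while the second kept it without any 1 library (0.00301 to 0.0211). HSF1 RNA does not report the activity of the factor, which is set on the protein.

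HSPA8, the constitutive HSP70 known for folding new chains and uncoating clathrin, had the largest difference among the 10 genes. Its levels were 1899.8, 1990.4, 1833 and 1879 CPM in WT normoxia, 1869.8, 2283, 1809 and 1933 CPM in hypoxia and 1556, 1506, 1470.2 and 1384 CPM in KO cells. All 4 KO libraries lay below all 8 WT libraries, and the WT groups overlapped. In KO cells HSPA8 was lower than in WT normoxia, with a log2 fold change of -0.32 (SE 0.05, 95% interval -0.43 to -0.21, edgeR adjusted p = 3.5e-04). Leaving out any 1 library gave -0.35 to -0.29 with adjusted p from 5.3e-04 to 0.00134. Against hypoxia the difference was -0.42 (SE 0.08, 95% interval -0.59 to -0.25, edgeR adjusted p = 0.00134), and without hypoxia replicate 2, whose level of 2283 CPM was the highest of all libraries, it was -0.34. In hypoxia against WT normoxia the log2 fold change was 0.09 (SE 0.08, edgeR adjusted p = 0.48), and without that library it was -0.0011.

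HSPA1A and HSPA1B are near-identical stress-inducible HSP70 genes that lie side by side on chromosome 6. As the sequences above show, each carries a heat shock element match, which begins at position -106 and -105 from the start, respectively. In their annotated transcripts 67.3% of the 100-base windows of HSPA1A and 72.7% of those of HSPA1B also occur in another gene, mostly each other, so how counts were split between them is uncertain. HSPA1A took 41.1% to 43.4% of their sum in every library. The summed level was 34.3, 40.4, 39.2 and 43.3 CPM in WT normoxia, 35.6, 30.1, 36.1 and 36.5 CPM in hypoxia and 37.8, 42.0, 39.4 and 38.7 CPM in KO cells. The KO and WT normoxia libraries overlapped, whereas each KO library was above each hypoxia library.

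In neither condition did this sum pass a test against WT normoxia. In hypoxia it differed by -0.18 on the log2 scale (two-sided exact permutation test, p = 0.114, 0.171 after Benjamini-Hochberg adjustment over 9 tests), and in KO cells by 0.01 (exact permutation p = 0.914, adjusted 0.914). Without WT normoxia replicate 1, the lowest of its group, the hypoxia difference was -0.25 (exact permutation p = 0.0286, not adjusted). Between KO cells and hypoxia the difference was 0.20 (exact permutation p = 0.0286, adjusted 0.0514), where 0.0286 is the smallest p that 4 against 4 libraries allow. Without hypoxia replicate 2 that difference was 0.13. In the fits of single genes, HSPA1A was at 17.0 ± 1.62 CPM in WT normoxia, 14.7 ± 1.56 in hypoxia and 16.7 ± 0.678 in KO cells (SD, n = 4), and HSPA1B was at 22.3 ± 2.11, 19.9 ± 1.43 and 22.8 ± 1.16 CPM. The log2 fold change in hypoxia was -0.18 (SE 0.10, edgeR adjusted p = 0.203) for HSPA1A and -0.14 (SE 0.08, edgeR adjusted p = 0.271) for HSPA1B. HSPA1B alone of the pair passed the adjusted p between KO cells and hypoxia (log2 fold change 0.20, SE 0.07, edgeR adjusted p = 0.0434, against 0.122 for HSPA1A). It kept this only without KO replicate 1, and leaving out any other of the 8 libraries gave an adjusted p between 0.0607 and 0.13. It also missed it under upper-quartile scaling (0.0797), with limma-voom (0.0534), without the filter (0.107) and with all 12 libraries in one fit (0.0553). Against WT normoxia the KO values were 0.00857 for HSPA1A (SE 0.08, edgeR adjusted p = 0.951) and 0.07 for HSPA1B (SE 0.08, edgeR adjusted p = 0.545).

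The inducible HSP70 genes were then set against the constitutive one within each library, a ratio that does not depend on library scaling. The ratio of the HSPA1A and HSPA1B sum to HSPA8 was 0.0207 ± 0.00208 in WT normoxia, 0.0178 ± 0.00308 in hypoxia and 0.0267 ± 0.00173 in KO cells (SD, n = 4). Every KO library, from 0.0243 to 0.0280, lay above every WT library, of which the highest was 0.0230. On the log2 scale the KO ratio was higher than in WT normoxia by 0.37 (exact permutation p = 0.0286, adjusted 0.0514) and than in hypoxia by 0.61 (exact permutation p = 0.0286, adjusted 0.0514). Neither passes the correction over 9 tests. At this smallest possible p, complete separation of the libraries passes it only if enough of the other tests also reach that p. Missing it is thus no verdict on the ratio. The numerator did not differ between KO cells and WT normoxia beyond its spread, whereas HSPA8 did. The hypoxia ratio differed from that of WT normoxia by -0.23 (exact permutation p = 0.171, adjusted 0.22), and by -0.10 without hypoxia replicate 2.

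**Figure D3:**
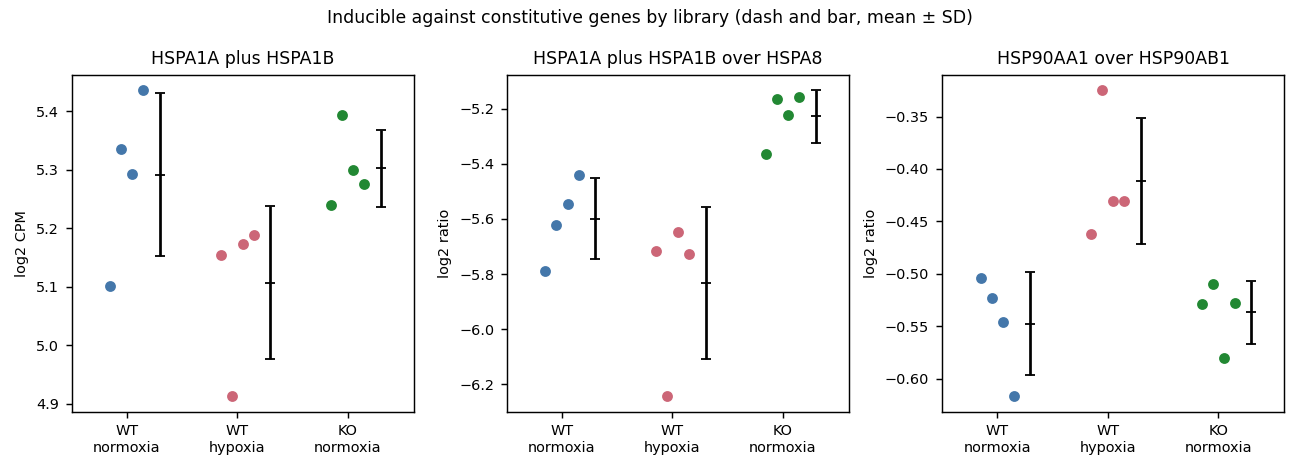
The summed HSPA1A and HSPA1B level (log2 CPM) and the log2 ratios of this sum to HSPA8 and of HSP90AA1 to HSP90AB1 in the 12 libraries (points, in replicate order; dash with bars, mean ± SD of 4). Hypoxia replicate 2 is the lowest library in the first and second panels and the highest in the third.

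The HSP90 genes were lower in KO cells. HSP90AB1, the constitutive form, was at 2301, 2379, 2390.4 and 2159 CPM in WT normoxia, 1853, 2112, 1847 and 1922 CPM in hypoxia and 2008, 1967, 1983 and 1982 CPM in KO cells. All hypoxia and all KO libraries lay below the lowest WT normoxia library, and the KO libraries lay within the range of hypoxia. The log2 fold change was -0.22 in hypoxia (SE 0.06, edgeR adjusted p = 0.0223) and -0.18 in KO cells (SE 0.04, edgeR adjusted p = 0.00907), and 0.04 between KO cells and hypoxia (SE 0.06, 95% interval -0.09 to 0.16, edgeR adjusted p = 0.674). The KO value kept an adjusted p of 0.00495 to 0.0303 without any 1 library. The hypoxia value missed the threshold without WT normoxia replicate 2 or 3 or hypoxia replicate 1, 3 or 4 (edgeR adjusted p between 0.0681 and 0.0811) and under upper-quartile scaling (0.0602).

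HSP90AA1, the inducible form, was at 1623, 1655, 1638 and 1408 CPM in WT normoxia, 1346, 1687, 1370.4 and 1426 CPM in hypoxia and 1393, 1381, 1327 and 1374 CPM in KO cells. The KO libraries lay below all WT normoxia libraries, though only just below replicate 4, and hypoxia replicate 2 was the highest of all. In KO cells the log2 fold change was -0.17 (SE 0.05, edgeR adjusted p = 0.0288). This missed the threshold without WT normoxia replicate 2 or 3 or KO replicate 3 or 4 (edgeR adjusted p between 0.0579 and 0.0741), with all 12 libraries in one fit (0.112) and, at 0.05003, under upper-quartile scaling. In hypoxia it was -0.09 (SE 0.08, edgeR adjusted p = 0.504), and without hypoxia replicate 2 it was -0.17 (edgeR adjusted p = 0.0414). Between KO cells and hypoxia it was -0.09 (SE 0.07, edgeR adjusted p = 0.369). Up to 2.99% of the 100-base windows of its transcripts occur in another gene, against 1.38% for HSP90AB1.

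The balance of the HSP90 pair was compared within each library. The ratio of HSP90AA1 to HSP90AB1 was 0.705, 0.696, 0.685 and 0.652 in WT normoxia, 0.726, 0.799, 0.742 and 0.742 in hypoxia and 0.693, 0.702, 0.669 and 0.693 in KO cells. Each hypoxia library lay above each normoxic library, and the normoxic groups overlapped. On the log2 scale the hypoxia ratio was higher than that of WT normoxia by 0.14 (two-sided exact permutation p = 0.0286, adjusted 0.0514), and the KO ratio differed from that of hypoxia by -0.12 (exact permutation p = 0.0286, adjusted 0.0514) and from that of WT normoxia by 0.01 (exact permutation p = 0.714, adjusted 0.804). Without hypoxia replicate 2 the hypoxia difference was 0.11. None of these values passes the correction over 9 tests. Since 0.0286 is the smallest p possible, complete separation passes it only if enough of the other tests also reach that p. Missing it where the libraries separate is thus no verdict on the ratio.

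HSPH1, an HSP110 protein that exchanges the nucleotide of HSP70 and has no heat shock element match in its window, was the member that stood out in hypoxia. It was at 198, 204, 194 and 188 CPM in WT normoxia, 159, 168, 166 and 152 CPM in hypoxia and 202, 189, 171 and 179 CPM in KO cells. Each hypoxia library lay below each normoxic library of either genotype. The log2 fold change in hypoxia was -0.25 (SE 0.05, 95% interval -0.37 to -0.14, edgeR adjusted p = 0.00521), and it stayed between -0.28 and -0.22 with adjusted p from 0.00137 to 0.0219 without any 1 library. In KO cells it was -0.04 (SE 0.05, edgeR adjusted p = 0.588). Between KO cells and hypoxia it was 0.20 (SE 0.06, edgeR adjusted p = 0.0212), which missed the threshold without hypoxia replicate 1 or 4 or KO replicate 1 or 2 (edgeR adjusted p between 0.0532 and 0.0731).

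The J-domain genes, whose products deliver substrates to HSP70, did not pass the adjusted p threshold in any of the 3 comparisons. DNAJB1 was the steadiest member, at 181 ± 6.42 CPM in WT normoxia, 173 ± 3.68 in hypoxia and 176 ± 3.45 in KO cells (SD, n = 4), and it ranged over the 12 libraries from 171 to 186 CPM. Its log2 fold changes were -0.03, 0.00311 and 0.02 in the 3 comparisons (SE 0.04 to 0.05), with edgeR adjusted p of 0.738, 0.967 and 0.765. DNAJA1 was at 302, 331, 322 and 295 CPM in WT normoxia, 247, 316, 249.5 and 263 CPM in hypoxia and 319, 301, 290.3 and 304 CPM in KO cells. Of the hypoxia libraries, 3 lay below every normoxic library, and replicate 2 lay among them. The log2 fold change in hypoxia was -0.19 (SE 0.08, edgeR adjusted p = 0.124), and without hypoxia replicate 2 it was -0.28 (edgeR adjusted p = 0.00167). Between KO cells and hypoxia it was 0.17 (SE 0.08, edgeR adjusted p = 0.102), and 0.26 without that library (edgeR adjusted p = 4.5e-04), while between KO cells and WT normoxia it was -0.0012 (SE 0.05).

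HSPB1, the small heat shock protein of the set, was the only member with a higher mean in hypoxia that came near the threshold. It was at 204, 246, 238 and 222 CPM in WT normoxia, 235, 273, 258 and 262 CPM in hypoxia and 215, 221, 232 and 209 CPM in KO cells. The hypoxia and WT normoxia libraries overlapped, whereas every KO library was below every hypoxia library. The log2 fold change in hypoxia was 0.21 (SE 0.07, edgeR adjusted p = 0.0506), with DESeq2 0.21 (adjusted p = 0.0157) and with limma-voom 0.21 (adjusted p = 0.0408). Leaving out any 1 library gave edgeR adjusted p from 0.0413 to 0.114, and no filter gave 0.0961. Of 18 alternatives, 10 passed the adjusted p threshold and 8 did not. In KO cells the log2 fold change was -0.01 against WT normoxia (SE 0.06, edgeR adjusted p = 0.903) and -0.23 against hypoxia (SE 0.06, edgeR adjusted p = 0.00755). The latter kept an adjusted p of 0.0041 to 0.0372 without any 1 library.

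Hypoxia replicate 2 stood apart for several members. It was the highest hypoxia library for HSPA8, HSP90AA1, HSP90AB1, HSPB1, HSPH1, DNAJB1 and DNAJA1, and the lowest for HSPA1A and HSPA1B. Its mitochondrially encoded genes made up 5.23% of the library sum, against 3.97% to 4.6% in the other hypoxia libraries, and its 10 most abundant genes 6.77%, against 5.61% to 6.02%, and the part of this in the results was not tested. After the group means were removed, log2 CPM of HSP90AA1 and HSP90AB1 varied together over the 12 libraries (r = 0.97), as did HSPA1A and HSPA1B (0.97), HSP90AB1 and DNAJA1 (0.92), HSP90AA1 and DNAJA1 (0.91) and HSPA8 and DNAJA1 (0.84). HSPA1A varied in the opposite direction to HSP90AA1 (-0.79), HSP90AB1 (-0.73), DNAJA1 (-0.65) and HSPA8 (-0.61). Hypoxia replicate 2 had the largest log2 deviation from its group mean for HSPA1A (-0.24), HSPA8 (0.22), HSP90AA1 (0.22), HSP90AB1 (0.13) and DNAJA1 (0.24). The correlations among these genes may thus rest largely on that library, and they were not computed without it. All these correlations are descriptions over libraries that share a depth within each pair, and the HSPA1A and HSPA1B pair shares sequence.

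The genes most like each member by Pearson's r of log2 CPM over the 12 libraries were sought among 13683 genes of at least 100 mean counts. Group differences were left in, and the highest of so many r values are high partly by selection. Few of these genes could be other members, so which genes were named says little about the set. HSPA1A and HSPA1B named each other (r = 0.96). HSPA8 was followed most closely by ACTG1, a cytoskeletal actin (0.98), ANKRD1 (0.98) and SFTA1P (0.98). For HSP90AA1 the closest were EIF2S2 (0.98), HNRNPA1 (0.97) and SUGT1, an HSP90 cochaperone (0.97), and for HSP90AB1 CCNH (0.98), ILF2 (0.98) and CCT6A, a chaperonin subunit (0.98). DNAJA1 was closest to FKBP1A (0.99), ATP6V1E1 (0.98) and PRDX6 (0.97), HSPH1 to YME1L1 (0.97), SEPTIN2 (0.97) and C16orf72 (0.97), HSF1 to UCK1 (0.97), MTCH1 (0.97) and EXOSC7 (0.96), and HSPB1 to DALRD3 (0.96), CEL (0.96) and TWF2 (0.95). DNAJB1, with the smallest spread, had no closer gene than MISP3 (0.88).

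The partners of these chaperones were then counted, from lists that hold none of the 10 genes. In KO cells, 9 of 15 HSP90 cochaperones were lower than in WT normoxia at an adjusted p alone and 0 higher, with a median log2 fold change of -0.18, and all 15 fold changes were below 0. None of them passed the fold limit. FKBP4, an immunophilin of steroid receptor complexes, was at 220 ± 7.74 CPM in WT normoxia, 236 ± 17.5 in hypoxia and 154 ± 1.76 in KO cells, and was lower in KO cells than in hypoxia past both limits (log2 fold change -0.62, SE 0.06, edgeR adjusted p = 8.0e-06). Of 14 subunits of the cytosolic chaperonin TRiC and its loader prefoldin, 11 were lower in KO cells and 0 higher (median -0.25), for example CCT5, chosen after its values were seen, at 707 ± 40.7 CPM in WT normoxia and 540 ± 5.04 in KO cells. These counts stand beside 15.4% of all genes lower at this threshold. Among genes with a mean of at least 1000 counts, 2834 of 10549 were lower. Leaving out any 1 library gave 8 to 10 lower cochaperones and 9 to 12 lower chaperonin and prefoldin subunits.

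Other HSP70 relatives included a few genes that passed the test. Of 8 further HSP70 and HSP110 genes, 4 were lower in KO cells at an adjusted p alone and 0 higher, against 1 lower and 1 higher in hypoxia. HSPA4L, an HSP110 protein, fell in KO cells from 90.0 ± 7.88 to 60.8 ± 4.89 CPM (log2 fold change -0.53, SE 0.06, edgeR adjusted p = 7.2e-05), and so did the distant relative HSPA12B, from 4.37 ± 0.373 to 2.43 ± 0.233 CPM (-0.80, SE 0.11, adjusted p = 1.8e-04). HSPA6, which is known as silent without stress, stayed at 1.89 ± 0.541 CPM in WT normoxia, 1.33 ± 0.443 in hypoxia and 2.2 ± 0.721 in KO cells and passed no test. Of 11 other J-domain genes, 3 were lower in KO cells, and 4 were lower and 1 higher in hypoxia. DNAJB5 fell in KO cells (-0.59, SE 0.07, edgeR adjusted p = 6.2e-05) and DNAJC2, a ribosome-bound partner, fell in hypoxia (-0.53, SE 0.10, edgeR adjusted p = 0.00402), though under upper-quartile scaling no gene of this list passed both limits there. Between KO cells and hypoxia HSPA2, HSPA12A, HSPA12B and DNAJB5 were lower in KO cells and passed the test, with log2 fold changes of -0.69, -0.62, -0.77 and -0.54. Of 8 HSP70 cofactors of the BAG family and their like, 6 were lower in hypoxia at an adjusted p alone (median -0.20) and 3 in KO cells (median -0.10), and none passed the fold limit. The counts of these lists stand beside 12% of all genes lower in hypoxia and 15.4% lower in KO cells at this threshold. Among genes with a mean of at least 1000 counts, 2378 of 10548 were lower in hypoxia and 2834 of 10549 in KO cells. The count of cofactors lower in hypoxia ranged from 2 to 6 without any 1 library, and upper-quartile scaling gave 3. Of 8 small heat shock genes other than HSPB1, only 3 had enough counts to be tested in hypoxia and in KO cells against WT normoxia, and none passed. Of 4 relatives and regulators of HSF1, 1 was higher and 1 lower at an adjusted p alone, both in hypoxia and in KO cells. Beside this, 11.6% of all genes were higher in hypoxia and 14.9% in KO cells. HSF4 rose in hypoxia from 7.30 ± 0.312 to 12.8 ± 1.23 CPM (log2 fold change 0.84, SE 0.09, edgeR adjusted p = 1.1e-04) and passed the test. It was also higher in KO cells (0.40, edgeR adjusted p = 0.00152). HSF2 was lower in hypoxia (-0.22, edgeR adjusted p = 0.0482) and HSBP1 in KO cells (-0.16, edgeR adjusted p = 0.0215).

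The chaperones of other compartments are given for comparison. In KO cells 13 of 17 endoplasmic reticulum chaperones were higher than in WT normoxia at an adjusted p alone and 0 lower (median 0.21). Beside this, 14.9% of all genes and 2059 of 10549 genes with a mean of at least 1000 counts were higher. All 17 fold changes were above 0, and PDIA4, a disulphide isomerase, rose from 202 ± 4.12 to 279 ± 3.25 CPM (log2 fold change 0.50, SE 0.04, edgeR adjusted p = 1.1e-06), as did DNAJB9, a partner of BiP (0.62, SE 0.09, edgeR adjusted p = 2.8e-04). Leaving out any 1 library gave 11 to 13. Against hypoxia 13 of 17 were also higher in KO cells (median 0.38), and HYOU1 (0.58), DNAJB11 (0.53) and DNAJB9 (0.56) passed the test. Beside this, 17.1% of all genes and 2731 of 10548 genes with a mean of at least 1000 counts were higher. Of 10 mitochondrial chaperones and proteases, 7 were lower in KO cells at an adjusted p alone and 0 higher (median -0.26). Beside this, 15.4% of all genes and 2834 of 10549 genes with a mean of at least 1000 counts were lower. In hypoxia 3 of the 10 were lower and 2 higher (median -0.02), and upper-quartile scaling gave 0 lower and 2 higher. LONP1, a matrix protease, rose in hypoxia from 248 ± 9.90 to 348 ± 14.9 CPM (log2 fold change 0.52, SE 0.05, edgeR adjusted p = 8.0e-05) and was lower in KO cells than in hypoxia (-0.72, SE 0.05, edgeR adjusted p = 1.2e-06). Of 8 immediate early genes, 3 were higher and 1 lower in KO cells and 3 higher in hypoxia at an adjusted p alone. EGR1 and IER3 rose in KO cells (0.77 and 0.60) and JUN was lower in KO cells than in hypoxia (-0.77). In hypoxia against WT normoxia the counts were 4 of 14 chaperonin and prefoldin subunits lower and 1 higher (median -0.18), 1 of 15 HSP90 cochaperones lower (median -0.03) and 4 of 17 endoplasmic reticulum chaperones lower and 1 higher (median -0.04). Without hypoxia replicate 2, 11 chaperonin and prefoldin subunits and 6 HSP90 cochaperones were lower in hypoxia, so these counts depend on that library. The counts in hypoxia against WT normoxia stand beside 12% of all genes lower and 11.6% higher. Among genes with a mean of at least 1000 counts, 2378 of 10548 were lower and 1440 higher. Whether one list differed from another was not tested.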

How the data were processed

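The deposited table holds expected counts per gene for 12 poly-A libraries. According to the methods, the authors aligned cleaned reads with Hisat2, quantified them with StringTie and compared groups with DESeq2. The submitters' processing notes name HISAT2, SAMtools and featureCounts instead, and the labels and the methods name different library kits. Genome build, annotation and strand setting are not given in the sources used here, so counts shared with overlapping or near-identical genes cannot be assigned. Libraries were grouped by their labels, and all 12 were used.

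Genes with enough counts in the 2 groups compared (edgeR's filterByExpr) were scaled by TMM and tested with edgeR 4.0.16 (glmQLFit and glmQLFTest), in R 4.3.3, with Benjamini-Hochberg adjustment over all genes tested. A call needs an adjusted p under 0.05 together with a log2 fold change of 0.5 or more in either direction. Alternatives included limma 3.58.1 (voom), DESeq2 1.42.0, other scalings, filters and thresholds, and leaving out each library. Sums and ratios were tested by two-sided exact permutation (9 tests). The code was tested on simulated counts. The sums per library, 68599412 to 213743693, set the precision and may not be read numbers; intervals are model based. Exon lengths and shared 100-base windows come from the GENCODE annotation of GRCh38, and promoters from RefSeq.

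The members and the lists were chosen with earlier results of these data known. All members are described; genes of the other lists are named where called, for likeness the 3 highest correlations, and any other as stated.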

Additional observations from a re-analysis of the deposited data

Results flagged for a closer look

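Within the groups of 4 libraries, a library was looked at again where its gap to the nearest other library, divided by the range of the group, was above Dixon's 95% critical value for 4 values. Of 39 groups tested over the 10 genes, the sum and the 2 ratios, 4 met this, where about 1.95 are expected by chance. HSPA1A in hypoxia replicate 2, at 12.4 CPM, lay below the other hypoxia libraries (15.4 to 15.6 CPM) with a gap of 0.933 of the range. The sum of HSPA1A and HSPA1B in the same library was the lowest with a gap of 0.874, and its ratio to HSPA8 was the lowest with a gap of 0.866, so these 3 results share 1 library and its counts. HSP90AA1 in WT normoxia replicate 4, at 1408 CPM, lay below the other WT normoxia libraries (1623 to 1655 CPM) with a gap of 0.868.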

How the results depend on the processing

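No member was called under any alternative but the adjusted p alone, which gave 2, 4 and 5 members in hypoxia, in KO cells and between KO cells and hypoxia, and 5127, 6506 and 7390 of all genes. Raising the fold limit to 1 on the log2 scale gave 487, 775 and 1219 genes. Without any 1 library the calls of all genes were 1308 to 1843, 1862 to 2097 and 2891 to 3200. Of the alternative member fold changes, 457 kept direction and side of the adjusted p, 36 lost it, 16 gained it and 21 changed sign. Among the sign changes, upper-quartile scaling gave 0.0223 for DNAJB1 in hypoxia, 0.00896 for HSPB1 and 0.0195 for DNAJA1 in KO cells and -0.0044 for DNAJB1 between KO cells and hypoxia. No filter gave -0.0152 for HSPA1A and -0.0209 for DNAJB1 in KO cells, and DNAJA1 there was 0.00335 with at least 10 counts in every library and 0.00763 with counts divided by 4. Leave-one-out ranges that crossed 0 were -0.0011 to 0.13 for HSPA8 in hypoxia and, in KO cells, -0.0563 to 0.064 for HSPA1A, -0.0671 to 0.018 for HSPB1, -0.027 to 0.0151 for DNAJB1 and -0.0246 to 0.0189 for DNAJA1. The HSPA1A and HSPA1B sum ranged without any 1 library from -0.25 to -0.12 in hypoxia, from -0.0527 to 0.0588 in KO cells and from 0.13 to 0.22 between them, and upper-quartile scaling turned the KO value to -0.0118. Its ratio to HSPA8 ranged from 0.31 to 0.43 in KO cells, and the HSP90AA1 to HSP90AB1 ratio from 0.11 to 0.15 in hypoxia, from -0.0123 to 0.0253 in KO cells and from -0.14 to -0.10 between KO cells and hypoxia. The cause of these changes was not tested. Leaving out together the 2 hypoxia libraries of lowest sum, chosen after seeing the data, called no member.

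Whether equal replicate numbers mark pairs is not stated. Correlations of same-numbered libraries after removing group means were -0.22 to 0.17. Libraries of different numbers were not set beside them, so these values cannot decide on pairing. With the replicate block the differences were unchanged by construction (HSPA1 sum 0.20 between KO cells and hypoxia; its ratio to HSPA8 0.37 and 0.61; HSP90 ratio 0.14 and -0.12), with an exact sign permutation p of 0.125 each, the smallest that 4 pairs allow. The block called no member; HSPB1 (adjusted p = 0.00907) and DNAJA1 (0.0392) passed the adjusted p in hypoxia, and HSPA1B missed it between KO cells and hypoxia (0.0827). Depth limits no member, since the lowest count was 1026.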
